A study of Rattus norvegicus with 8 samples.

Results

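The 10 genes described here encode the enzymes that make and recycle glutathione and remove peroxide and superoxide: Gclc, Gclm, Gss, Gsr, Txnrd1, Gpx1, Gpx4, Cat, Sod1 and Sod2. They were chosen by gene symbol, and 20 probes carried one of these symbols as their single symbol. They are 10 of 14802 named genes on the arrays, and all 10 had a value on all 8 arrays and were tested, among 14801 tested genes. RNA of large rat retinal ganglion cells was set against RNA of small ones, separated by flow cytometry and amplified in 2 rounds, on each of 8 arrays with 2 colours. Both fractions came from retinas whose ganglion cells had been filled backwards along their axons with the fluorescent tracer 4DI-10ASP, and both were kept with actinomycin D, which blocks transcription, during handling. Strain, age, sex and the number of animals behind each array are not given in the labels.

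Glutathione is a tripeptide thiol and the main soluble antioxidant of cells. Glutamate-cysteine ligase, made of the catalytic subunit GCLC and the modifier subunit GCLM, carries out its rate-limiting step, and glutathione synthetase completes it. Superoxide dismutases turn superoxide into hydrogen peroxide, which catalase and the glutathione peroxidases remove, and glutathione reductase then restores the oxidised glutathione with NADPH. Ganglion cells have long unmyelinated axon segments in the retina that are rich in mitochondria, and oxidative damage is a known part of their loss in optic nerve disease.

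The values are log2 ratios of the 2 channels of an array as the authors deposited them, and which channel is on top is not stated. The labels list the channels as large cells, then small cells. If the ratio runs in this order on every array, the positive side of 0 means higher in large cells. The arrays, named by the number in their title, fell into sets of 4 that correlated positively within a set (39, 41, 43 and 70 in set 1, and 40, 42, 69 and 71 in set 2). Between the sets, 15 of 16 pairs of arrays correlated negatively over all probes, down to a Pearson correlation of -0.32 for arrays 39 and 69. A swap of the dyes is part of the stated design, yet the labels list the same dyes on every array, so the direction is not settled. If set 2 alone is reversed, a difference between large and small cells cancels in the mean over the 8 arrays as deposited. It then also cancels in the mean of a model with the set as a covariate. Means as deposited would in that case not compare large with small cells. The 10 genes, the named genes of related lists and the marker lists are therefore given as deposited and with the signs of set 2 turned (a fit chosen after seeing the data), a value equal to 0.5 times the difference between the means of the sets. The labels mention 2 technical subreplicates of each biological replicate without naming the arrays, so p-values over 8 arrays measure only the spread between arrays and may be too small. The sets were read from these same values, which makes the p-values of the turned fit too small. For the same reason, p-values of a model with the set as a covariate may be too small. A ratio carries no level, so whether a transcript was abundant or near background, and whether markers of the sorted cells were present, could not be read.

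None of the 10 genes passed the test over the 8 arrays, limma with the Benjamini-Hochberg adjustment over all genes and an adjusted p under 0.05. Over all genes 324 passed (2.19%). Gsr came closest, 1.30-fold from 0 on the negative side, and the other 9 genes lay within 1.18-fold of 0. Gsr and Gpx4, both negative, were the 2 of 10 with an unadjusted p under 0.05, against 13.1% of all genes on either side and 7.88% on the negative side. The 4 averages of arrays neighbouring in the order of title number also gave 2 of 10 at that level, against 13.0% of all genes. Each average joins an array of set 1 with an array of set 2, so a difference between the sets is averaged out. The means of the 10 genes had a median of -0.08, with 6 negative and 4 positive, against a median of -0.0057 over all genes. The median SD over the arrays was 0.27 for the 10 genes and 0.28 over all genes. No gene of the 10 had the same sign on all 8 arrays, a pattern seen for 4.41% of all genes, and 1 had the same sign on 7, against 13.1% of all genes with at least 7.

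**Figure D1:**
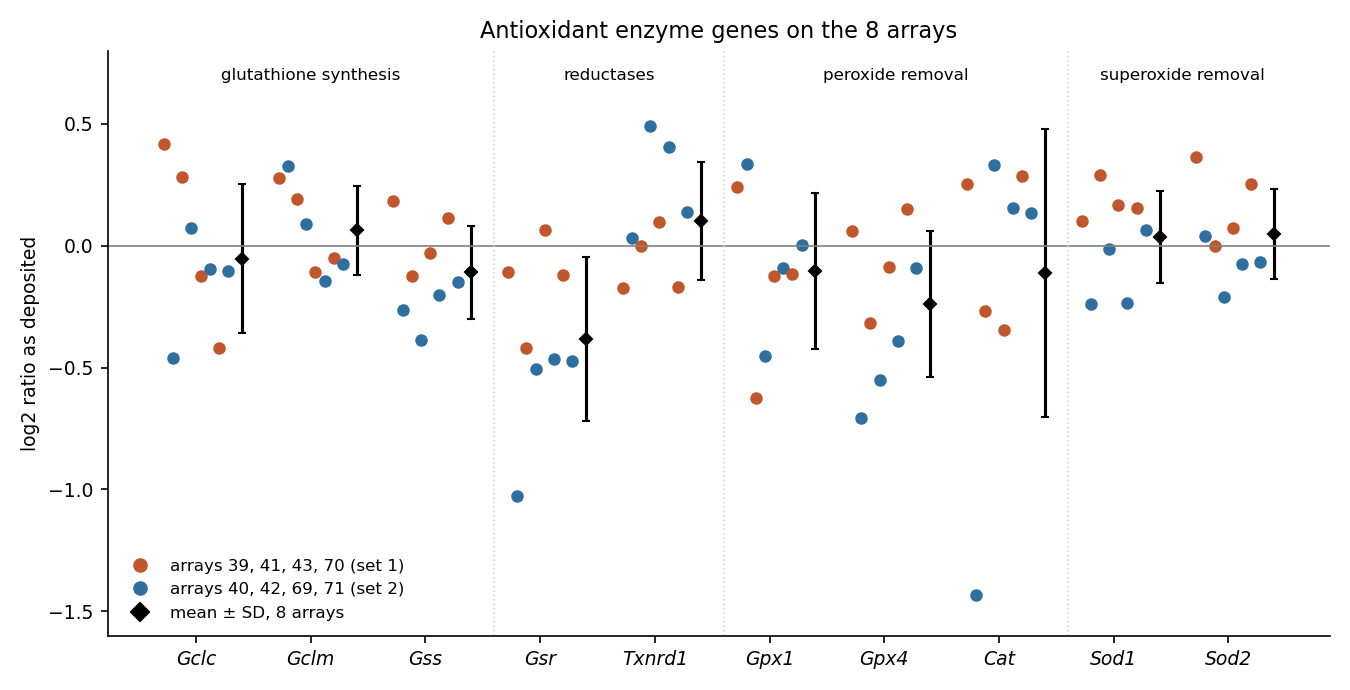
Log2 ratio as deposited (vertical axis) of each of the 10 genes on the 8 arrays, in the order of title number from left to right within a gene. Points are single arrays coloured by set, and black diamonds with bars are the mean ± SD. Gsr is negative on 7 of 8 arrays, and Cat has its lowest value, -1.43, on array 40.

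Gsr encodes glutathione reductase, the enzyme that returns oxidised glutathione to its reduced form. Its log2 ratio ran from -1.03 on array 40 to 0.06 on array 43, with a median of -0.44. It was negative on 7 of 8 arrays, and all 4 arrays of set 2 lay below all 4 arrays of set 1. The sets were read from these same values, and the share of all genes split in this way was not counted. The mean was -0.38 ± 0.34 (SD, n = 8 arrays), with a 95% confidence interval from -0.63 to -0.14 and a limma adjusted p = 0.129. By its mean it was number 443 from the lowest of 14801 genes.

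The side of Gsr was shared by both of its probes and by both sets of arrays. The probes 3558 and 6879 had means of -0.31 ± 0.51 and -0.46 ± 0.40 (n = 8 arrays each), and each was negative on 7 of 8 arrays. The probe 3558 was lowest on arrays 39 (-0.51) and 40 (-1.42). Without these arrays its mean was -0.09, and that of the probe 6879 was -0.55. The mean of Gsr was -0.15 ± 0.20 in set 1 and -0.62 ± 0.27 in set 2 (n = 4 arrays each). The averages of arrays neighbouring in the order of title number, each over both sets, were -0.57 for arrays 39 and 40 and -0.46 for arrays 41 and 42. They were -0.20 for arrays 43 and 69, whose numbers are not consecutive, and -0.30 for arrays 70 and 71. All 4 averages were negative, with a limma adjusted p = 0.128. When the set entered the model as a covariate, Gsr passed the test (limma adjusted p = 0.0246) as 1 of the 10 genes, against 6.27% of all genes, 4.36% on the negative side. With turned signs Gsr lay at 0.24 ± 0.46, positive on 5 of 8 arrays, and was not called (limma adjusted p = 0.255).

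Txnrd1 encodes cytosolic thioredoxin reductase, a selenoprotein that keeps thioredoxin reduced and belongs to the same enzyme family as glutathione reductase. Its log2 ratio ran from -0.17 on array 39 to 0.49 on array 42, with a median of 0.06. The mean was 0.10 ± 0.24 (n = 8 arrays; limma adjusted p = 0.753), opposite in sign to Gsr. The sets averaged -0.06 (set 1) and 0.27 (set 2). Its 2 probes, annotated to one transcript record, gave almost the same pair of set means, -0.03 and 0.26 for one probe and -0.09 and 0.27 for the other. Once set 2 was turned, Txnrd1 lay at -0.16 ± 0.20, negative on 7 of 8 arrays (limma adjusted p = 0.113).

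The genes of glutathione synthesis lay close to 0. Gclc, for the catalytic subunit of glutamate-cysteine ligase, ran from -0.46 on array 40 to 0.42 on array 39, with a median of -0.10. Its mean was -0.05 ± 0.31 (n = 8 arrays; limma adjusted p = 0.937), and it was negative on 5 of 8 arrays. The mean without array 40 was 0.0045. Gclm, for the modifier subunit, ran from -0.15 on array 69 to 0.33 on array 40, with a median of 0.02. Its mean was 0.06 ± 0.18 (limma adjusted p = 0.856), and its 4 positive arrays were arrays 39 to 42. Gss, for glutathione synthetase, ran from -0.39 on array 42 to 0.18 on array 39, with a median of -0.14. Its mean was -0.11 ± 0.19, negative on 6 of 8 arrays (limma adjusted p = 0.669).

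The 95% confidence intervals take the 8 arrays as independent and hold for a gene's mean of probes in one reading of the signs. As deposited, the interval reached 1.22-fold from 0 at most for Gclc, 1.17-fold for Gclm, 1.21-fold for Gss and 1.55-fold for Gsr. With turned signs it reached 1.24-fold for Gclc, 1.13-fold for Gclm, 1.22-fold for Gss and 1.47-fold for Gsr.

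The near-zero mean of Gclm hid large opposite values of its probes. The probe 41551 lay at 0.65 in set 1 and -0.49 in set 2. The probes 20811 and 41355 ran the other way, at -0.22 and -0.20 in set 1 and 0.31 and 0.32 in set 2. All 3 probes nonetheless had means over the 8 arrays between 0.04 and 0.08. The turned values (0.5 times the difference between the sets) thus spread over 0.83 between the probes of Gclm, against a median of 0.40 over the 1307 genes with 3 probes. Of those 1307 genes, 70.8% had probes on both sides of 0 in this quantity.

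**Figure D2:**
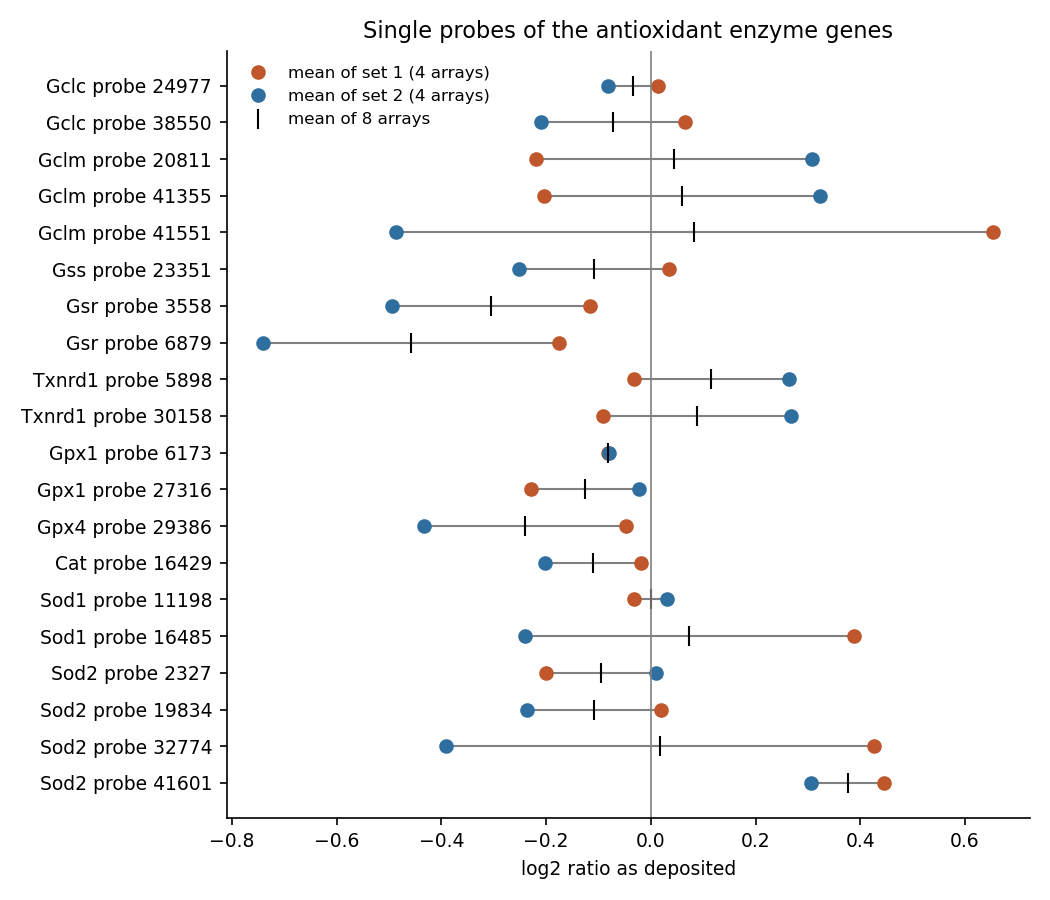
Mean log2 ratio as deposited (horizontal axis) of each of the 20 probes over set 1 (orange) and set 2 (blue), joined by a line, with a black tick at the mean of all 8 arrays. Both probes of Gsr lie left of 0 in both sets, and the 3 probes of Gclm differ in which set is higher.

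Gpx4 encodes the peroxidase that reduces lipid hydroperoxides within membranes and holds off ferroptosis. Its log2 ratio ran from -0.71 on array 40 to 0.15 on array 70, with a median of -0.20. It was negative on 6 of 8 arrays, the exceptions being arrays 39 and 70. The mean was -0.24 ± 0.30 (n = 8 arrays; 1.18-fold, limma adjusted p = 0.338), from a single probe. The sets stood at -0.05 ± 0.20 (set 1) and -0.43 ± 0.26 (set 2), and the turned value was 0.19 ± 0.34 (limma adjusted p = 0.213).

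Gpx1 encodes the abundant cytosolic glutathione peroxidase, which reduces hydrogen peroxide. Its log2 ratio ran from -0.63 on array 41 to 0.33 on array 40, with a median of -0.10. The mean was -0.10 ± 0.32 (n = 8 arrays; limma adjusted p = 0.819). Neighbouring arrays lay together: the first pair, 39 and 40, stood at 0.24 and 0.33, the pair 41 and 42 at -0.63 and -0.45, and the other 4 arrays from -0.12 to 0.0050. Without arrays 39 and 40 the mean was -0.23 (limma adjusted p = 0.298). The turned value was -0.05 ± 0.33.

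The 9 microglia markers, all measured, averaged 0.92 on array 39 and 0.82 on array 40, then -0.36 on array 41 and -0.33 on array 42, and from 0.13 to 0.33 on the other 4. These were also the highest and the lowest arrays of Gpx1, a pairing chosen with the values known. They were likewise those of Prcc, a gene on none of the marker lists. Prcc stood at 0.23 and 0.47 on arrays 39 and 40 and at -0.535 and -0.539 on arrays 41 and 42. The part of microglial RNA in the values of Gpx1 was not tested, and none of the 9 markers was called.

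Cat encodes catalase, the peroxisomal enzyme that splits hydrogen peroxide into water and oxygen. Its log2 ratio ran from -1.43 on array 40 to 0.33 on array 42, with a median of 0.14. The mean was -0.11 ± 0.59 (n = 8 arrays; limma adjusted p = 0.915), the largest SD of the 10 genes, and its interval reached 1.43-fold from 0. Cat was positive on 5 of 8 arrays although its mean was negative. Without array 40 the mean was 0.08. The turned value was 0.09 ± 0.59. Catalase is abundant in red blood cells, whose 3 measured markers of 6 averaged -0.85 on array 40, their lowest array, and from -0.54 to 0.07 on the other 7. The part of red cell RNA in the value of Cat was not tested, and this pairing too was chosen with the values known. Array 40 also held the most exact zeros of the 8 arrays (301 of 574) and the most values of a size above 15 (44 of 73). Whether this bears on Cat was not tested.

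**Figure D3:**
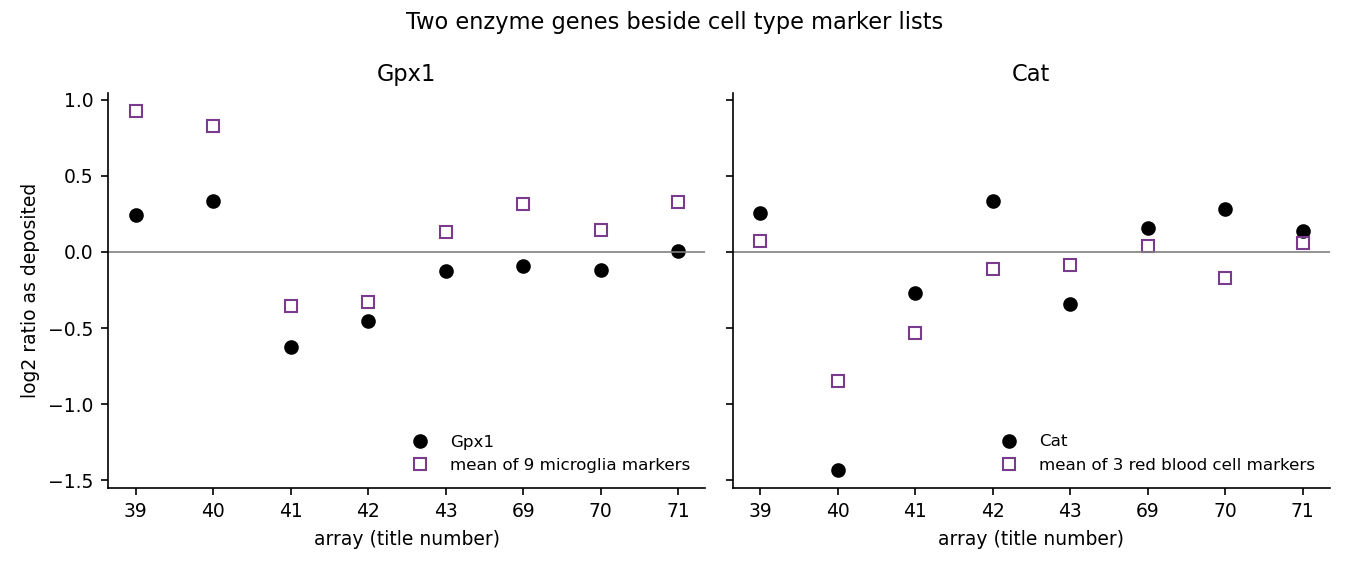
Log2 ratio as deposited (vertical axis) on each of the 8 arrays (horizontal axis, title numbers). Filled circles are Gpx1 (left) and Cat (right), and open squares are the mean of 9 microglia markers (left) and of 3 red blood cell markers (right). Gpx1 and the microglia markers are both highest on arrays 39 and 40 and lowest on arrays 41 and 42, and Cat and the red cell markers are both lowest on array 40.

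The superoxide dismutases had the 2 means closest to 0 of the 10 genes. Sod1, the copper-zinc enzyme of the cytosol, ran from -0.24 on array 40 to 0.29 on array 41, with a median of 0.08 and a mean of 0.04 ± 0.19 (n = 8 arrays; limma adjusted p = 0.941). All 4 arrays of set 1 were above all 4 arrays of set 2, a split whose share over all genes was not counted. Turned, Sod1 lay at 0.14 ± 0.12, positive on 7 of 8 arrays (limma adjusted p = 0.0704). Only one of its probes showed this separation. The probe 16485 lay at 0.39 in set 1 and -0.24 in set 2, while the probe 11198, annotated to the same transcript record, lay at -0.03 in set 1 and 0.03 in set 2.

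Sod2, the manganese enzyme of mitochondria, ran from -0.21 on array 42 to 0.36 on array 39, with a median of 0.02 and a mean of 0.05 ± 0.19 (n = 8 arrays; limma adjusted p = 0.911). Its 4 probes did not share a side. The probe 41601 had a mean of 0.38 ± 0.52 and was highest on arrays 39 (1.08) and 40 (0.98). The other probes had means of -0.10 ± 0.22, -0.11 ± 0.22 and 0.02 ± 0.45. The probe means spanned 0.48, against a median of 0.31 over the 418 genes with 4 probes. Turned, Sod2 lay at 0.12 ± 0.14 (limma adjusted p = 0.125). Its interval reached 1.16-fold from 0 as deposited and 1.19-fold turned, and that of Sod1 1.15-fold as deposited and 1.20-fold turned.

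With the signs of set 2 turned, none of the 10 genes was called by limma, against 28.1% of all genes. Gss, Txnrd1, Sod1 and Sod2 were the 4 of 10 with an unadjusted p under 0.05 there, against 39.9% of all genes. Of these 4, Gss lay at 0.14 ± 0.16 (limma adjusted p = 0.11). Gclc lay at 0.09 ± 0.30 and Gclm at 0.01 ± 0.19. The median size of the turned value was 0.13 for the 10 genes and 0.15 over all genes.

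Single arrays differed in how the 10 genes lay together. On array 39, 8 of the 10 were positive, with a median of 0.21, and on array 40 the median was -0.25 with 4 positive. The medians on the other 6 arrays ran from -0.12 to 0.03, with 2 to 5 genes positive. Array 40 held the lowest value of Gclc, Gsr, Gpx4, Cat and Sod1 and the highest of Gclm and Gpx1. Over all probes arrays 39 and 40 had the widest spread, with an SD of 0.56 and 0.55, against 0.36 to 0.52 on the other 6. The median over all genes was 0.0072 on array 39 and -0.0683 on array 40.

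The profiles nearest to those of the 3 most variable genes were found by the root-mean-square difference over the 8 arrays among 14599 other genes. The smallest of so many differences falls below their median in any case, so the medians give only a scale. Cat was nearest to Kng2l1 (0.18) and Eci2 (0.22), against a median difference of 0.62. Gsr was nearest to Tyw1 (0.14) and Nadsyn1 (0.16), against a median of 0.57. Gpx1 was nearest to Tars2 (0.0991) and Prcc (0.10), against a median of 0.43. Kng2l1 and Eci2 stood at -1.24 and -1.57 on array 40, on either side of Cat there. None of these 6 genes was called.

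Beyond the 10 genes, 119 of 126 genes on 6 lists of related function were measured, and 3 were called, all on the negative side and none on the positive side (1.62% and 0.568% of all genes). They were Ggt7, Gpx8 and Gsto1, each from a different list. Of the 119 means, 67 were negative and 52 positive. A model with the set as covariate called 9 of 119 (7.56%, against 6.27% of all genes), and the fit with turned signs called 28 of 119 (23.5%, against 28.1% of all genes).

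Among 18 genes of cysteine supply and glutathione turnover, 1 was called, and the list had a median of -0.04. Ggt7, a member of the gamma-glutamyltransferase family, ran from -1.05 on array 70 to 0.01 on array 40, with a median of -0.64. Its mean was -0.63 ± 0.32 (n = 8 arrays; 1.55-fold, limma adjusted p = 0.0156), negative on 7 of 8 arrays. The call was narrowly lost without array 43 (adjusted p = 0.0502) or array 70 (0.0509). Slc1a1, a neuronal transporter of glutamate and cysteine, was negative on 8 of 8 arrays at -0.30 ± 0.20 but did not pass (limma adjusted p = 0.0846). It passed once the set was a covariate (limma adjusted p = 0.0191), and its turned value was 0.13. With turned signs 8 of the 18 genes were called (44.4%, against 28.1% of all genes), the highest share of the 6 lists. The largest turned value of the list was that of Ggct, at 0.54 (limma adjusted p = 4.9e-04).

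Among 14 other glutathione peroxidases, selenoprotein and superoxide genes, 1 was called, and the list had a median of 9.7e-04. Gpx8, a membrane protein of the endoplasmic reticulum, ran from -0.71 on array 69 to -0.25 on array 42, with a median of -0.53. Its mean was -0.53 ± 0.15 (n = 8 arrays; 1.44-fold, limma adjusted p = 0.0069), and it was negative on 8 of 8 arrays, as were 2.86% of all genes. The sets hardly differed for Gpx8, at -0.56 ± 0.08 in set 1 and -0.50 ± 0.20 in set 2, and the call held when any one array was left out. Gpx7, its relative in the same compartment, had a similar mean of -0.54 ± 0.66 but was not called (limma adjusted p = 0.254). Gpx7 lay at 0.02 ± 0.26 in set 1 and -1.09 ± 0.35 in set 2. It passed with the set as a covariate (limma adjusted p = 0.0142), and its turned value was 0.55 (limma adjusted p = 0.0616).

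Among 22 glutathione transferases as deposited, 18 had a negative mean, against 52.0% of all genes, and 1 was called, against 2.19% of all genes. With turned signs fewer of the 22 were negative. The list median as deposited was -0.05. Gsto1, of the omega class, ran from -0.52 on array 42 to -0.12 on array 39, with a median of -0.28. Its mean was -0.28 ± 0.12 (n = 8 arrays; 1.22-fold, limma adjusted p = 0.0477), negative on 8 of 8 arrays with both probes. It lay at the threshold: leaving out any one array but array 39 took the adjusted p to between 0.0717 and 0.139, and centring each array on its median took it to 0.0707. Mgst3, a microsomal transferase, had the largest mean of the list as deposited at -0.38 ± 0.28, negative on 7 of 8 arrays, and did not pass (limma adjusted p = 0.0801). It passed with the set as a covariate (limma adjusted p = 0.0406), and its turned value was 0.09. Turned, the largest value of the list was that of Gsta1, at 0.50 (limma adjusted p = 0.0165).

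Ggt7, Gpx8 and Gsto1 were not called over the 4 averages of neighbouring arrays, where 0.0% of all genes were called (limma adjusted p = 0.092 for Ggt7, 0.092 for Gpx8 and 0.136 for Gsto1). Nor were they called with turned signs, where Ggt7 lay at -0.19, Gpx8 at -0.03 and Gsto1 at 0.07 (limma adjusted p = 0.563, 0.921 and 0.648).

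The other 3 lists had no called gene by limma, and 4, 4 and 1 genes with an unadjusted p under 0.05 among 23, 25 and 17 measured, against 13.1% of all genes. The thioredoxin, peroxiredoxin and glutaredoxin genes (23 measured) had a median of 0.04, and the largest as deposited were Prdx3, the mitochondrial peroxiredoxin, at 0.33 ± 0.33 and Txnip, which binds and inhibits thioredoxin, at 0.31 ± 0.36 (limma adjusted p = 0.204 and 0.264). Txnip stood at 0.94 and 0.76 on arrays 39 and 40 and from -0.15 to 0.29 on the other 6. The turned values were -0.01 for Prdx3 and 0.06 for Txnip, and the largest turned value of the list was that of Prdx6, a peroxiredoxin with a single active cysteine, at 0.47 (limma adjusted p = 6.7e-04). The regulators of NRF2, the transcription factor of the antioxidant response, with NADPH supply and other NRF2 targets (25 measured) had a median of -0.01. Their largest values as deposited were Abcc1, an exporter of glutathione conjugates, at 0.30 ± 0.24, positive on 8 of 8 arrays (limma adjusted p = 0.129), and Mt3, a brain metallothionein, at -0.28 ± 0.46. The turned values were -0.05 for Abcc1 and -0.36 for Mt3, and the largest turned value was that of Osgin1, at -0.62 (limma adjusted p = 3.7e-04). The oxidant-producing enzymes (17 measured) had a median of 0.05, with Ncf1, a subunit of the phagocyte NADPH oxidase, at 0.23 ± 0.18 and Nox1 at 0.21 ± 0.35 as deposited. Their turned values were -0.04 and 0.0054, and the largest turned value was that of Dao, for D-amino acid oxidase, at -0.44 (limma adjusted p = 8.8e-04). Ggct, Gsta1, Prdx6, Osgin1 and Dao were chosen after their values were seen.

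**Figure D4:**
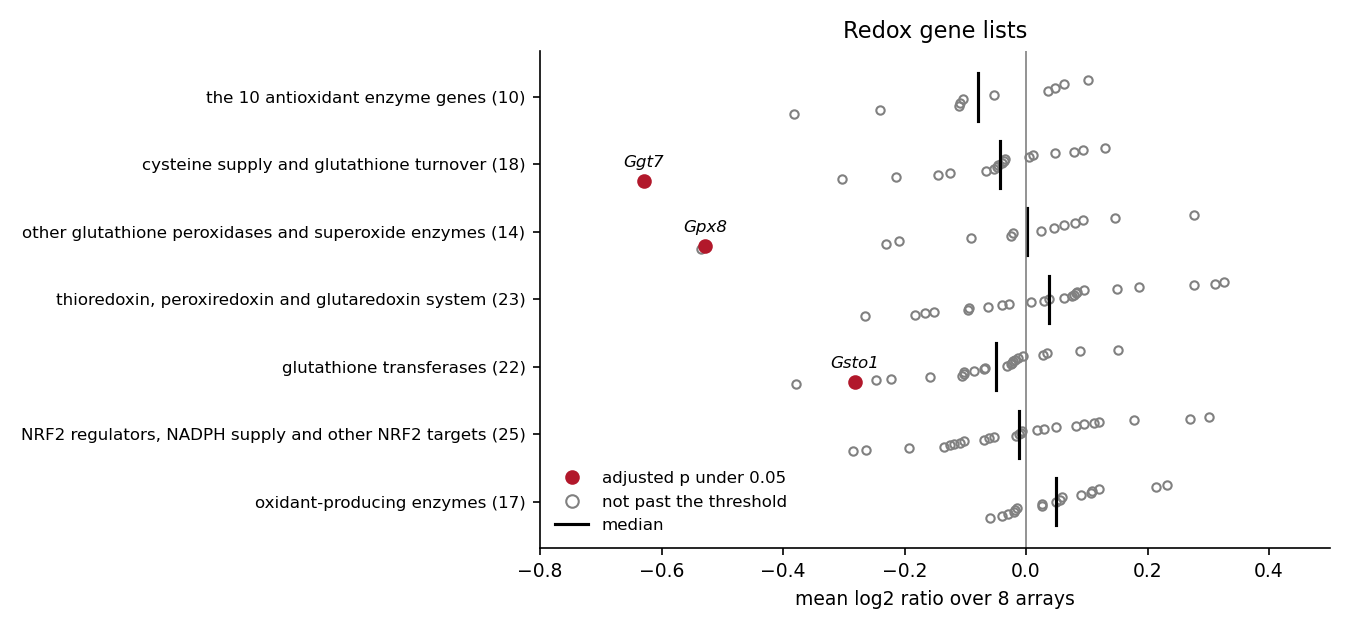
Mean log2 ratio over the 8 arrays (horizontal axis) of the 10 antioxidant enzyme genes and of the measured genes of 6 related lists, with the number of genes in brackets. Filled red points passed an adjusted p under 0.05 and are named, open points did not pass, and a black line marks the median. The 3 called genes, Ggt7, Gpx8 and Gsto1, lie on the negative side.

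Marker lists of the cells a sort could hold lay on both sides of 0. The list means over the 8 arrays were 0.36 ± 0.29 for 11 rod and cone markers, 0.25 ± 0.47 for 9 microglia markers, 0.21 ± 0.10 for 5 bipolar markers, 0.20 ± 0.10 for 5 amacrine markers and 0.06 ± 0.13 for 9 Müller glia and astrocyte markers. The 11 ganglion cell markers lay at -0.19 ± 0.12 and the 3 red blood cell markers at -0.20 ± 0.33, and 6 vascular markers lay at 1.1e-04 ± 0.13. As deposited, Gsr, Gpx4, Ggt7, Gpx8 and Gsto1 lay on the side of the ganglion cell and the red blood cell markers. So did 52.0% of all genes and 240 of the 324 called genes, and these genes were picked with their side known. With turned signs the ganglion cell markers lay at -0.06 ± 0.23 and the red blood cell markers at 0.02 ± 0.39, while Gsr, Gpx4 and Gsto1 were positive and Ggt7 and Gpx8 negative. The other lists turned lay at 0.25 ± 0.41 for rod and cone, 0.10 ± 0.10 for Müller glia and astrocyte, 0.04 ± 0.23 for amacrine, -0.02 ± 0.24 for bipolar, -0.04 ± 0.53 for microglia and -0.09 ± 0.09 for vascular markers. The part of cell composition in these values was not tested. In sorted fractions of this kind, fewer cells of a type and less RNA per cell cannot be told apart.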

How the data were processed

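The authors' deposited table holds log2 ratios of the 2 channels of each array, for 41048 probes on 8 arrays. How the scans were corrected and normalized is not stated in the sources available. The log2 base was read from the values: 61 of 88 distances between common values fitted log2 of a ratio of whole numbers up to 10 (tolerance 0.0011), 13 log10 and 1 the natural logarithm. Array medians lay between -0.08 and 0.03.

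The 73 values of a size above 15 and the 574 exact zeros were taken as missing. Probes were named from the platform's probe table (23374 with 1 symbol, 48 with several, 17626 with none), updated through the RefSeq table of GRCr8 (23327 matched, 1 changed), and probes of a gene were averaged. A gene needed values on 6 arrays. The labels mention 2 technical subreplicates for each biological replicate without saying which arrays these are, so the arrays entered singly, and p-values measure only the spread between arrays. Treating subreplicates as independent makes p too small. An intercept model was fitted over all genes with limma 3.58.1 in R 4.3.3, 2-sided, with the Benjamini-Hochberg adjustment. On simulated data of 14665 genes it recovered 50% of 100 genes shifted by 0.5 and 94% of 100 shifted by 1, with 5 false calls. The simulated arrays were independent, unlike the real arrays, which correlated in sets and may include subreplicates. These rates may therefore not hold for the real data.

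The genes, lists and alternatives were chosen with earlier results of these data known. From each list, called genes and the 2 largest means are named. Genes nearest in profile were taken for the 3 genes with the largest SD. Plots used matplotlib 3.10.9 under Python 3.11.15.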

Additional observations from a re-analysis of the deposited data

Results flagged for a closer look

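Cat on array 40 stood apart from the other arrays. Its log2 ratio there was -1.43, against -0.34 on the next lowest array, a gap of 0.617 of the whole range (Dixon's limit for 8 values is 0.526). Of 39 series of 8 values checked in this way, for the 10 genes, the named genes of the lists and single probes, this was the only one that passed the limit, and chance passes about 1 in 20. Arrays 39 and 40 had the widest spread over all probes (SD 0.56 and 0.55).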

How the results depend on the processing

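The count of genes called was 324 of 14801. Over single probes, another unit, 496 of the 23374 probes with 1 symbol were called. The count of genes was 928 with the set as a covariate and 4161 with the signs of set 2 turned (added after seeing the data). It was 0 over the 4 averages of neighbouring arrays, where 1930 had an unadjusted limma p under 0.05. Leaving out 1 array gave 134 to 332, with fewer than 324 by over 1.5 times without array 41 (195), 42 (188), 43 (159), 69 (205), 70 (134) or 71 (168). Of the 10 antioxidant enzyme genes 1, Gsr, was called with the set as a covariate, and 0 under every other alternative run. The genes called on the 6 lists were 3, but 9 with the set as a covariate, 28 with the signs of set 2 turned, 0 over the averages, and 1 to 4 without 1 array, with 1 left without array 43 or 70. Turning the signs of set 2 changed the sign of Gclc (0.0927), Gss (0.14), Gsr (0.24), Txnrd1 (-0.16), Gpx4 (0.19), Cat (0.0919) and Gsto1 (0.0696). Without arrays 39 and 40, Gclm (-0.0166), Cat (0.0484) and Sod2 (-0.0042) changed sign. The median in place of the mean of probes put Sod2 at -0.0099, single probes put it at -0.10 and -0.11, and a single probe put Sod1 at -0.0004. Leaving out 1 array moved Gclc between -0.12 and 0.0045 and Cat between -0.17 and 0.0778. The same step moved 8 other means by over 1.5 times between its ends without a change of sign: Gclm from 0.0252 (without array 40) to 0.0924 (69), Gss from -0.1495 (39) to -0.068 (42), Txnrd1 from 0.0469 (42) to 0.1417 (39), Gpx1 from -0.166 (40) to -0.0287 (41), Gpx4 from -0.2968 (70) to -0.1748 (40), Gsr from -0.4453 (43) to -0.2892 (40), Sod1 from 0.0003 (41) to 0.076 (40) and Sod2 from 0.0021 (39) to 0.0841 (42). The causes of these changes were not tested. No paired analysis was possible because all 8 arrays form 1 group. Signal over background is unknown here, so dim probes could not be left out.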
